A study of Mus musculus with 6 samples.

Results

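The regions described here are the shared promoter regions of protein-coding genes in primary smooth muscle cells of the mouse oviduct, as seen by ATAC-seq. They were chosen by the measured peaks themselves. Overlapping entries were merged within the list of reproducible peaks of each genotype, and then the WT and Pbrm1 cKO lists were merged with each other. A merged region was kept when it overlapped entries of both lists by at least 1 bp and lay within 1000 bp of a transcription start of a protein-coding gene. Of 66679 merged regions, 46152 were shared by both lists, and 15634 of these met the distance rule. The 15634 regions made up 33.9% of the shared regions. They lay at 12901 of 21951 protein-coding genes, or 58.8% (95% Wilson interval 58.1 to 59.4%).

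ATAC-seq inserts sequencing adapters into DNA with the Tn5 transposase, which works mainly where nucleosomes leave the DNA free. The 6 libraries came from oviducts of mice aged 8 to 12 weeks on day 2 of pregnancy, 3 labelled WT and 3 labelled Pbrm1 cKO. Per the study's methods, the conditional knockout carried Pbrm1 fl/fl alleles that are recombined by a Cre expressed from the progesterone receptor gene, so the deletion is limited to cells that have expressed this receptor. The WT label stands for the controls, which the study describes as Pbrm1 fl/fl littermates. The cells were released with enzymes, filtered and held in culture for some hours, and 50000 of them entered each reaction. The labels do not say whether each library was 1 animal, and p-values then measure the spread between these libraries only.

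A promoter is the stretch around a transcription start where general transcription factors and RNA polymerase II assemble. Most promoters of genes that every cell needs lie in CpG islands, stretches rich in the CpG dinucleotide that tend to stay free of nucleosomes and of DNA methylation. Promoters of genes used in 1 cell type are more often poor in CpG and open only where their activators bind. Pbrm1 encodes BAF180, a subunit with several bromodomains that defines PBAF, one of the forms of the nucleosome-moving complex SWI/SNF.

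Before the values, 7 stretches of 150 bases are shown, in genome build GRCm38 from the RefSeq assembly, 5′ to 3′ on the strand of the named gene. The first 4 belong to members whose rank differed between genotypes past the threshold given further on, and the last 3 to highly placed members of each CpG class. Capitals mark matches to the 12 short motifs that were searched. Fggy, at chr4:95557357-95557506 on the plus strand, ends at the base before the start, as do all of these stretches except that of Btnl10.
Fggy: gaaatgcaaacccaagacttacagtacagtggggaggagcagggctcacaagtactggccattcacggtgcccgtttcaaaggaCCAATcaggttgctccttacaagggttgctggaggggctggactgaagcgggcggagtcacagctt
Btnl10 is shown around the summit of its region, at chr11:58916986-58917135 on the plus strand, since the region lies 668 bp before the start.
Btnl10: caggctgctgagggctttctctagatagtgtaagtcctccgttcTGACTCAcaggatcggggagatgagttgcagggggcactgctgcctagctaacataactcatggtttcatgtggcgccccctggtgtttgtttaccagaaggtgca
Kif11 lies at chr19:37376253-37376402 on the plus strand.
Kif11: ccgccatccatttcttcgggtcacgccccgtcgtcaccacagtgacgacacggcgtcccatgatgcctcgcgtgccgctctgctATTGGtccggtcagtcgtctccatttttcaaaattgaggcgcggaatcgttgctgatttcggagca
H2-D1 lies at chr17:35262580-35262729 on the plus strand.
H2-D1: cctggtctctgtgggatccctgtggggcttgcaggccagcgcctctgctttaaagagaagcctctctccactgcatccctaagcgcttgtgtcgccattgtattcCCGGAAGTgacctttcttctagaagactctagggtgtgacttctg
Prmt5, a CpG-rich promoter, lies at chr14:54517526-54517675 on the minus strand.
Prmt5: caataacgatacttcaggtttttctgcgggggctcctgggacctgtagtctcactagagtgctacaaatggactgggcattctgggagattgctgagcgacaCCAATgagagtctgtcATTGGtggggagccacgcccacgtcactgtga
Tmtc3, an intermediate promoter, lies at chr10:100487351-100487500 on the minus strand.
Tmtc3: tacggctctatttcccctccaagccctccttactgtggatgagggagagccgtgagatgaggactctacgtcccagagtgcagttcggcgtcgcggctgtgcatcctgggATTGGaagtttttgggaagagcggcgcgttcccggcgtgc
Zfp960, a CpG-poor promoter, lies at chr17:17063963-17064112 on the plus strand.
Zfp960: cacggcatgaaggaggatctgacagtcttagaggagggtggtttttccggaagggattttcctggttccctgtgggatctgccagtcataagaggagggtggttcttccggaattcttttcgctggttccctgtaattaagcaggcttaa
The NFY motif CCAAT, or ATTGG on the other strand, was found in 4 of these 7 stretches. It began 66 bases before the start in both Fggy and Kif11, 48 and 32 bases before it in Prmt5 and 40 bases before it in Tmtc3. H2-D1 held the ETS motif CCGGAAGT 45 bases before its start, and Btnl10 held an AP-1 motif. The bases before the start of Iqsec3, another member past the threshold, fall in annotated exons and are not shown. Prmt5 held place 4 and Zfp960 place 2 in their class by mean rank, because for the last 3 stretches those that met a coding gene's exon or left the region were passed over. The stretch of H2-D1 has 110 of its 150 bases inside its region, and the rest lie just before it.

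The authors' lists give each peak summit a fold enrichment over local background and a −log10 p. Both together return the number of Tn5 insertion tags over the summit, which is the only measure of depth in these files. Each merged region was ranked within each library by its best −log10 p, with rank 1 the strongest, and the rank score is the log2 of the number of regions divided by the rank, so a difference of 1 is a factor of 2 in rank. The median member had 62, 52.5 and 38 tags over its best summit in WT libraries 1 to 3, and 67, 62 and 64 in Pbrm1 cKO libraries 1 to 3. WT library 3 was the shallowest, and 43 members had no entry in its list, against 7 in that of Pbrm1 cKO library 3 and 0 in the other 4. Entries in all 6 libraries covered 15586 members, or 99.7%.

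Promoter regions stood above other shared regions in every library. Their median rank lay between 10039 and 12389, and that of the 30518 other shared regions between 27795 and 29830. The median rank score was 1.35 higher for members (range over libraries 1.17 to 1.57, SD 0.14, n = 6; exact sign-flip permutation test, two-sided, p = 0.031, the smallest p that 6 libraries allow). Members took 91.3 to 94.3% of the 1000 best-ranked regions of a library and 68.6 to 78.0% of the best 10000. The median fold at the best summit was 9.99 to 13.2 for members and 6.54 to 10.5 for the others. The regions were also longer, with a median of 774 bp against 519 bp, and 10% of members exceeded 1239 bp. Their median GC content was 60.6% against 48.3%, and the median share of repeat-masked bases was 5.05% against 8.50%. A rank rests on 1 summit and not on length, but a longer region offers more summits, a median of 4 in the WT list for members and 2 for other shared regions.

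Summits sat just before the start. In 12353 members, 79.0% of them, the region itself held an annotated start. The best summit lay a median of 17 to 24 bp before the nearest start, and 61.0 to 63.5% of summits were on the upstream side. Averaged over libraries, 25% of summits lay more than 104 bp before the start and 25% more than 22.9 bp after it, so the distribution was longer on the upstream side. Between 55.5 and 58.0% of summits were within 100 bp of a start, and 13.9 to 14.4% were more than 500 bp away. A second, small rise stood downstream, with 1.12% of summits in the 20 bp around position 210 in WT library 1, against 0.59% around position 130. Pbrm1 cKO library 1 gave 1.05% and 0.52% at the same positions.

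**Figure D1:**
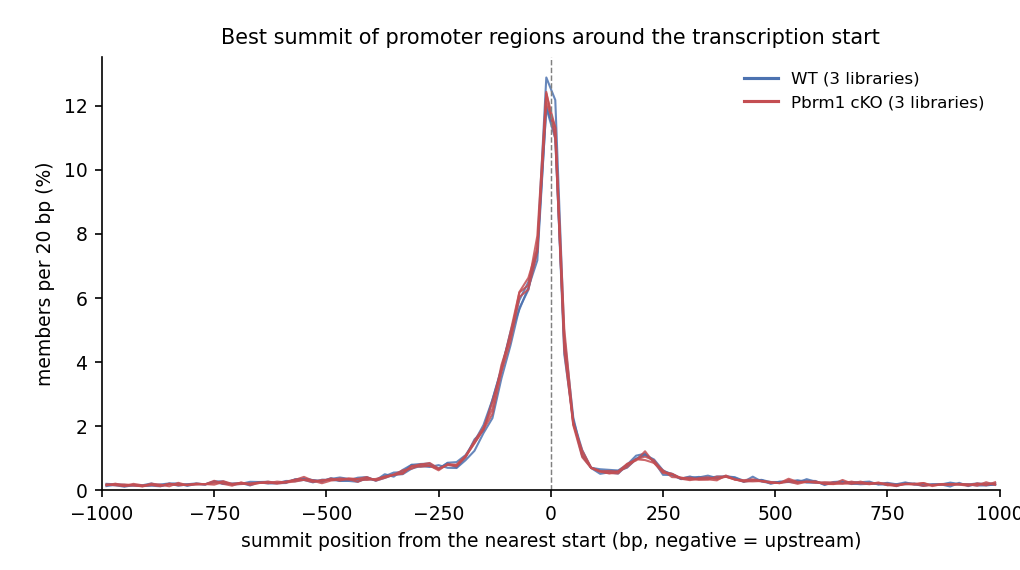
The x axis gives the position of the best summit of each member from its nearest protein-coding start in bp, negative upstream, and the y axis the share of members per 20 bp in percent, with 1 line per library. The 6 lines run on top of each other, with their peak at the start and a longer upstream side.

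No difference in these positions between genotypes was found beyond the spread of the libraries. The median summit position was -20.7 ± 3.21 bp for WT against -22.3 ± 2.08 bp for Pbrm1 cKO (mean ± SD of 3 libraries; two-sided exact permutation test, p = 0.6, where 3 against 3 cannot go below 0.1). Without WT library 3 the difference turned from -1.67 to 0.17 bp. Entries of WT libraries covered 9.95 ± 0.461 Mb of the members and those of Pbrm1 cKO 10.1 ± 0.111 Mb (mean ± SD of 3; p = 0.8 by the same exact test), with 78.3% of the member bases covered in WT library 3 and 82.3 to 85.9% in the others. Adjusted over the 4 comparisons of this kind, including both rank comparisons given further on, each p was 1.

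Whether a gene had a member followed the CpG content of its 5′-most start, the one classed here. The member itself may lie at another start of the gene. CpG-rich starts were those with an observed-to-expected CpG ratio of at least 0.75 and at least 55% GC in the 500 bp around the start, and CpG-poor starts those with a ratio below 0.48. A member was present at 6590 of 7142 genes with a CpG-rich start, 92.3% (95% Wilson interval 91.6 to 92.9%). The share was 78.2% of 5183 intermediate and 23.5% of 9608 CpG-poor starts (22.6 to 24.3%). Among the 12901 genes with a member, 51.1% of starts were CpG-rich and 17.5% CpG-poor, and among the 8170 genes with no region in either list 4.35% were CpG-rich and 84.9% CpG-poor. The 867 genes with a region in 1 list only lay between, at 22.7% and 47.8%. These intervals treat genes as independent, which neighbouring and duplicated genes are not.

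Gene families split the same way. All 78 mitochondrial ribosomal protein genes had a member, as did 45 of 46 genes for subunits of respiratory complex I, with Ndufa4l2, a subunit paralog induced by low oxygen, the exception. Of 80 genes for cytosolic ribosomal proteins, 77 had one, and the 3 without were Rpl10l, Rpl39l and Rpl3l, paralogs known from testis or striated muscle. Of 40 proteasome genes, 38 had one, and the 2 without were Psma8 and Psmb11, the forms of the testis and the thymus. Zinc finger protein genes named Zfp had a member in 332 of 394 cases. Only 38.3% of their regions were CpG-rich, yet their median mean rank over the 6 libraries, 7096, was better than that of all members, 11598.

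The other end held the receptors of the nose and other genes of a single tissue. Only 5 of 1135 olfactory receptor genes had a member, 0.441% (Wilson interval 0.188 to 1.03%), namely Olfr156, Olfr432, Olfr433, Olfr94 and Olfr983, and their median mean rank was 31267. Vomeronasal receptors had a member in 5 of 331 cases, keratin-associated proteins in 1 of 57 and beta-defensins in 1 of 42. Solute carriers (227 of 371), collagens (23 of 45) and cytochromes P450 (20 of 100) lay between the ends. Among the autosomes and X, the share ran from 39.98% of 948 genes on X (Wilson interval 36.9 to 43.1%) to 70.1% of 643 on chromosome 12. None of the 183 genes on Y, in these female cells, and none of the 13 of the mitochondrial genome had one.

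**Figure D2:**
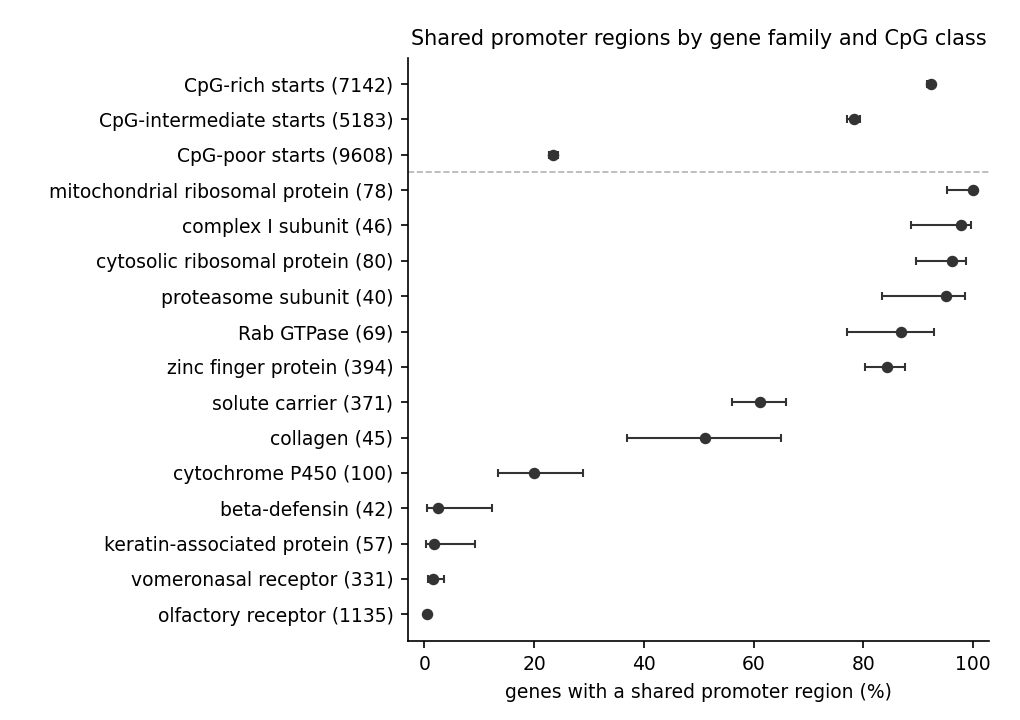
The x axis gives the share of protein-coding genes with a shared promoter region in percent, for CpG classes of the start (top) and gene families (below), with the number of genes in parentheses and bars for 95% Wilson intervals. Ribosomal, proteasome and complex I genes lie at 95% or above, and the 4 families of nose receptors, hair proteins and defensins lie below 3%.

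CpG content also ordered the members among themselves, each classed by its nearest start. The median rank in a library was 6580 to 8852 for the 8065 CpG-rich members, 10750 to 12087 for the 4773 intermediate and 24017 to 25326 for the 2796 CpG-poor ones, and the 3 ranges did not overlap. CpG-poor members were shorter, with a median of 566 bp against 866 bp for CpG-rich ones. In the best 25% of members by mean rank, 70.6% were CpG-rich and 2.33% CpG-poor. In the lowest 25% the shares were 34.0% and 36.0%.

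Divergent promoters, from which protein-coding genes start on opposite strands, were 1498 of the members, or 9.58%. They ranked higher than the rest, with a median mean rank of 5617 against 12530, at a similar length of 744 and 777 bp. They made up 17.2% of the best 25% by mean rank and 4.99% of the lowest 25%. A single gene started at 13754 members, 2 genes at 1804, and 3 or 4 genes at 76. The most genes in a member were 4, at Zc3h11a, Ubr7 and Bola1. The region of Bola1 at chr3:96219636-96220281 lay within 1000 bp of the starts of the histone genes Hist2h2ab, Hist2h2ac and Hist2h2be beside that of Bola1. A start of a noncoding gene lay within 1000 bp of 2286 members. In the other direction, 3574 genes had at least 2 members, led by Plec, the gene of the cytoskeletal linker plectin, with 10, Tns1, for the adhesion protein tensin, with 8, and Pde4d, for a phosphodiesterase that degrades cyclic AMP, with 7.

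The best-ranked member was at the divergent start of Hjurp, a histone chaperone of the centromere, with ranks of 11, 13 and 15 in the WT and 12, 11 and 9 in the Pbrm1 cKO libraries and with 172 to 465 tags. The second, at Gm21887 on X, ranked 10 to 17. Its 435 bp have an identical copy elsewhere in the reference, so tags of the copies cannot be told apart. The next were Ttc14, Prmt5, for an arginine methyltransferase, 9430038I01Rik, and Top1, for DNA topoisomerase I. Arl13b, for a GTPase of cilia, Tmtc3, shared with Cep290, Mrpl17, of the mitochondrial ribosome, and Tfg, for a protein of the secretory pathway, completed the first 10. The lowest-ranked members, at Bcl11a, Zfand3, Iqgap3, Zfp12 and Scml4, held ranks of 48599 and beyond, with 8 to 33 tags where they had an entry. Scml4 was the only one of these whose region held a start, and Bcl11a, for a repressor of the blood and brain, lay 890 bp away.

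Members just inside the distance limit were those at Prox2, 1000 bp from its start, and at Trim41 and Cox6a1, 999 bp away. Prox2 had ranks of 8966 to 15113, Trim41 of 11915 to 28145 and Cox6a1 of 26133 to 44176. Just outside, 1 bp beyond the limit, were regions near Slc6a17, Vwa1 and Ppfia3, with ranks of 25754 to 56223, 32609 to 61058 and 14270 to 24489.

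Short motifs of known promoter factors were counted in the 300 bases from 250 before to 50 after the 5′-most start of each gene, on both strands. The letters were GGGCGGG for SP/KLF, CCAAT for NFY, CCGGAAGT for ETS, GCATGCGC for NRF1, CACGTG for the E-box of USF, AAGATGGC for YY1, TGACGTCA for CRE and CTCGCGAG for ZBTB33. TGANTCA stood for AP-1 and GGAATG for TEAD, the CArG box of the serum response factor was searched by its usual consensus, and TATAAA was searched only on the gene's strand 45 to 15 bases before the start. None of the motifs given in letters contains another, but a CArG box can hold CCAAT or TATAAA. A palindrome was counted once.

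SP/KLF letters occurred at 44.6% of genes with a member and at 10.6% of genes with no region (31.5% of all genes). ETS letters occurred at 7.41% and 0.820% (4.70% of all), YY1 letters at 4.22% and 1.08%, NRF1 letters at 5.08% and 1.73%, and ZBTB33 letters at 1.86% and 0.257%. Base composition differs between these sets. Within CpG-rich starts the SP/KLF share was 58.0% with and 60.8% without a region, while ETS was at 9.58% and 1.41% and YY1 at 5.43% and 0.282%. Only 355 genes with no region had a CpG-rich start, so their ETS and YY1 shares rest on few genes. The TATA letters ran the other way, at 0.992% of genes with a member and 5.30% of those without. CCAAT was about equally frequent, at 39.0% and 39.9%, and the CArG box was at 1.29% and 1.79%.

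**Figure D3:**
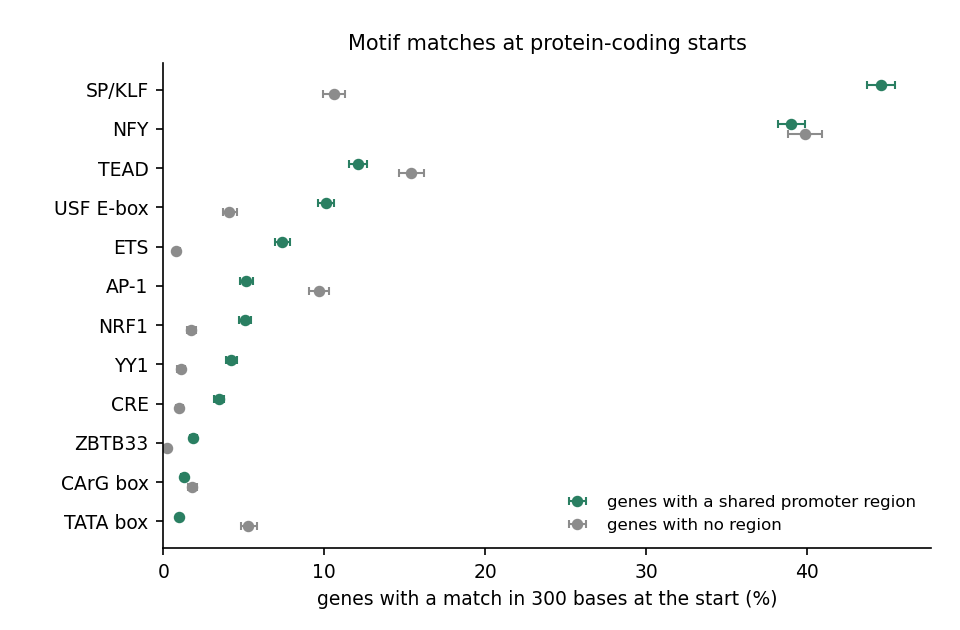
The x axis gives the share of genes with a motif match in the 300 bases at the start in percent, with 95% Wilson intervals, for 12901 genes with a shared promoter region (green) and 8170 with no region (grey). SP/KLF, ETS, NRF1, YY1, CRE, ZBTB33 and the USF E-box are more frequent in green, and TATA, AP-1 and TEAD in grey.

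Among members, those with ETS letters at the nearest start had a median mean rank of 5975 and those without of 12267. For ZBTB33 the values were 5474 and 11770, and for YY1 7381 and 11917. Of members with ETS letters 18.01% were divergent and of those with YY1 letters 17.98%, against 9.58% of all members. AP-1 and TATA letters went with lower places, at 16710 against 11319 and at 15979 against 11573. For members with each of the 12 motifs, the median genotype difference in rank score lay between -0.06 and 0.00, next to -0.03 for all members. These medians were not tested over libraries, and a median cannot show changes of single members or in both directions.

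The label of the cells was compared with marker genes. Of 12 contractile smooth muscle genes, 11 had a member, all but Actg2, which encodes the enteric smooth muscle actin. They were led by Cald1 (caldesmon, mean rank 6921) and Smtn (smoothelin, 10105). Acta2, for smooth muscle actin, was at 19388 and Myh11, for smooth muscle myosin, at 23524, and the lowest were Cnn1 (calponin, 46897) and Lmod1 (48442). Their median mean rank was 19700, behind that of all members, and 6 of the 11 regions were CpG-poor. Of 10 fibroblast genes 6 had a member, with Vim at 6824 and Fn1 at 7728 best and Pdgfra at 34437 and Dcn at 38127 lowest. Thy1 had a region in 1 list only, and Col3a1, Lum and Postn had none.

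Markers of epithelium, immune cells and neurons were mostly without a region, whereas endothelial markers mostly had a member. Over all protein-coding genes, 58.8% had one. Of 10 epithelial genes of the oviduct, 8 had none (Epcam, Krt8, Krt18, Krt7, Cdh1, Pax8, Ovgp1 and Cldn4). The exceptions were Foxj1, of ciliated cells, with ranks of 2715 to 7249, and Muc1, whose region lies nearest to the start of the neighbouring gene Mtx1. Of 8 immune genes, 6 had none, Ptprc among them, and Cd68 and Csf1r had a member. Endothelial genes had one in 5 of 8 cases (Kdr, Vwf, Tek, Pecam1 and Cdh5) and neuronal genes in 3 of 8 (Syt1, Snap25 and Rbfox3). The region of Pecam1 also lies within 1000 bp of a start of Milr1. An open promoter is no measure of transcription, and an entry cannot tell a few open cells from many partly open ones.

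Of 19 regulators of the reproductive tract, 11 had a member. They were led by Nr2f2, for COUP-TFII, at a mean rank of 7729, and Wt1 at 8374, and Tcf21 stood among the lowest at 29529. Esr1, the estrogen receptor, was at 22812, Hoxa10 at 16401 and Hand2 at 19427. Pgr, the progesterone receptor, whose locus drives the Cre, had a region in 1 list only, as did Hoxa9 and Amhr2, and Pax2, Hoxa11, Wnt5a, Wnt4 and Wnt7a had none.

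Ranks within a library cannot show a gain or loss of accessibility common to all regions. As a group, members differed in rank between genotypes by less than the spread of the libraries. Their median rank score averaged 2.57 ± 0.15 over WT and 2.59 ± 0.06 over Pbrm1 cKO (mean ± SD of 3 libraries), a difference of 0.02 (two-sided exact permutation test, p = 1). The sign changed without WT library 2 (-0.05), without Pbrm1 cKO library 2 (-0.00) and with ranks by fold (-0.07). The rank score of CpG-poor minus that of CpG-rich members was -1.66 ± 0.24 for WT against -1.76 ± 0.05 for Pbrm1 cKO (p = 0.6 by the same exact test), and without WT library 2 that difference was 0.00. The fold itself was higher in Pbrm1 cKO, at 12.8 ± 0.358 against 11.1 ± 0.955 (SD, n = 3 each, as for the next values). Its ranges were 12.5 to 13.2 in Pbrm1 cKO and 9.99 to 11.7 in WT. Tags per summit were 64.3 ± 2.52 against 50.8 ± 12.1. The fold of other shared regions was 9.90 ± 0.533 against 8.41 ± 1.63, with overlapping ranges of 9.45 to 10.5 and 6.54 to 9.49. The part of depth in this was not tested.

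Single members were compared with limma on the rank scores of all 66679 regions. Because membership needed a peak in both lists, regions seen in 1 genotype only could not be members. Of the 15634 members, 5 ranked higher and 1 lower in Pbrm1 cKO at an adjusted p below 0.05, that is 0.0320% and 0.0064%, and the background over all regions was 0.0390% higher and 0.0285% lower. On a normal-score scale 71 members passed (25 higher and 46 lower), or 0.454%, against a background of 2.33% over all regions. At an unadjusted p below 0.05 there were 1249 members, or 7.99%, with 499 higher and 750 lower, against a background of 15.9%. In 2032 members, 13.0%, the 3 libraries of a genotype all lay on one side of the other 3, 827 higher and 1205 lower in Pbrm1 cKO, against a background of 21.5% over all regions, 10.6% higher and 10.9% lower. Between libraries of 1 genotype members varied more than other shared regions, with a median SD of the rank score of 0.45 against 0.32 in WT and 0.35 against 0.28 in Pbrm1 cKO. This spread was widest in the best 25% of members by mean rank, at 0.75 in WT, and 0.33 in the lowest 25%. The log2 score stretches differences among the best ranks, where members stood more often, and the spread was not compared at equal rank.

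**Figure D4:**
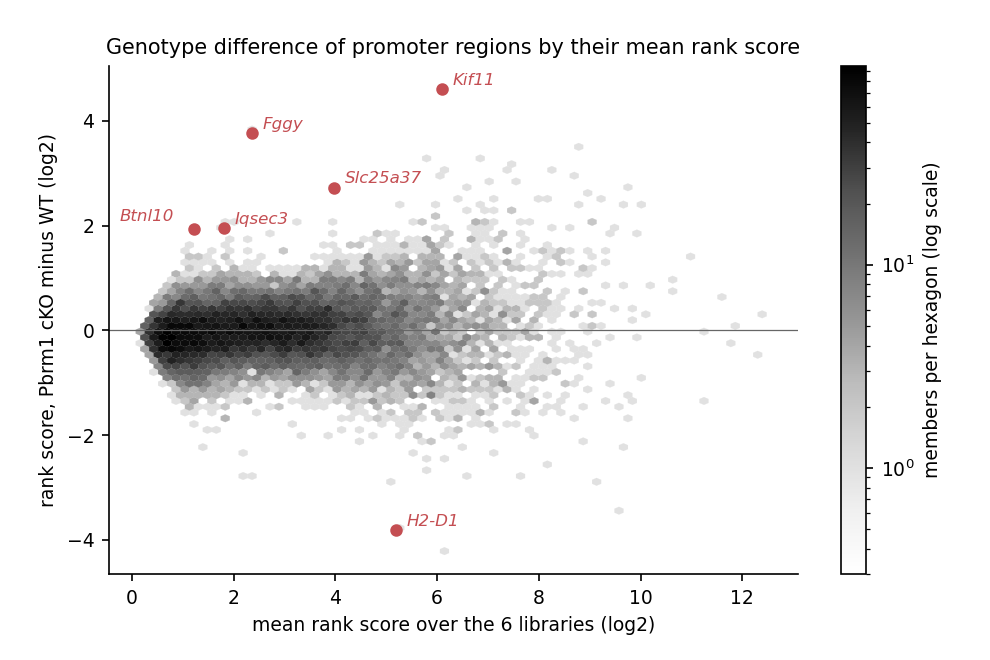
Each hexagon counts members by their mean rank score over the 6 libraries (x axis, log2) and the difference in rank score, Pbrm1 cKO minus WT (y axis, log2), and red points mark the 6 members past the limma threshold. The cloud is centred on 0 and widens toward high scores, and Kif11, Fggy, Slc25a37, Iqsec3 and Btnl10 lie above it and H2-D1 below.

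Fggy, which encodes a carbohydrate kinase, changed most clearly. Its region at chr4:95557268-95557836, a CpG-poor promoter, ranked 37548, 56462.5 and 51846.5 in the WT libraries and 3157, 4337.5 and 3150 in the Pbrm1 cKO libraries. The tags over its summit were 20, 12 and 8 in WT and 95, 78 and 89 in Pbrm1 cKO, and the fold was 4.23 to 8.84 and 21.3 to 24.1. All 3 Pbrm1 cKO libraries were far above all WT libraries on every measure. The rank score was 3.77 higher in Pbrm1 cKO (SE 0.34, adjusted p = 0.000115), and it passed the threshold in each of the 6 fits that left out 1 library (adjusted p 0.00122 to 0.00736). It was the only member past the threshold when regions were ranked by fold (adjusted p = 0.00611). A second member within 250 kb, at another start of Fggy some 79512 bp downstream, differed by 0.31 (adjusted p = 0.63).

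Kif11 encodes the mitotic kinesin that separates the spindle poles. Its CpG-rich region at chr19:37375600-37376451 ranked 3399.5, 3738 and 8687 in WT and 112, 99 and 691 in Pbrm1 cKO. The tags were 91, 73 and 39 in WT and 171, 160 and 139 in Pbrm1 cKO, so all 3 knockout libraries were higher. The rank score was 4.605 higher (SE 0.77, adjusted p = 0.0338), and the threshold was passed in 1 of the 6 fits that left out a library (adjusted p 0.0367 to 0.165).

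Btnl10, a butyrophilin-like gene, and Iqsec3, for an exchange factor of ARF GTPases known from synapses, rose from low places. The Btnl10 region at chr11:58916950-58917240 ranked 54311, 53013 and 59996.5 in WT and 17573.5, 15507 and 11310 in Pbrm1 cKO, with 14, 13 and 6 tags against 38, 37 and 47. The difference was 1.94 (SE 0.31, adjusted p = 0.0261). The Iqsec3 region at chr6:121472990-121473705 ranked 29356.5, 37417.5 and 47515 in WT and 14319, 7274 and 8547 in Pbrm1 cKO, with a difference of 1.96 (SE 0.35, adjusted p = 0.0434). Neither passed in any fit that left out a library, where adjusted p ran from 0.0539 to 0.165 and from 0.0703 to 0.184.

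H2-D1, a heavy chain of MHC class I, which presents peptides to T cells, was the only member that ranked lower in Pbrm1 cKO past the threshold. Its region at chr17:35262620-35263916 ranked 1031, 196 and 571 in WT and 7006, 8332 and 5406.5 in Pbrm1 cKO. The tags were 145, 143 and 93 in WT and 85, 73 and 89 in Pbrm1 cKO. The fold overlapped between genotypes, at 14.9, 18.1 and 15.2 in WT and 15.4, 13.2 and 15.4 in Pbrm1 cKO. The difference in rank score was -3.81 (SE 0.60, adjusted p = 0.0218), it passed in 2 of the 6 fits that left out a library, and with ranks by fold the adjusted p was 0.2504. Among 20 other members within 250 kb, 12 differed in the same direction, and none passed the threshold. The other class I genes among them went both ways, with both members of H2-Q4 at -1.05 and -0.09, H2-Q6 at -0.90 and H2-Q7 at 0.99 (adjusted p = 0.159, 0.942, 0.248 and 0.432).

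Slc25a37 encodes mitoferrin-1, which brings iron into mitochondria. Its region at chr14:69284270-69285469 ranked 9981, 13618 and 9560 in WT and 1126, 2384 and 1676 in Pbrm1 cKO, and the tags were 60, 46 and 36 against 146, 120 and 132. The difference was 2.72 (SE 0.43, adjusted p = 0.0218), with adjusted p from 0.0511 to 0.165 when 1 library was left out. All of its 1200 bp have a copy of 100% identity 218 kb away, which is the member of Gm16867 at chr14:69502499-69503720. The member of Entpd4b, a Golgi nucleotidase gene, is likewise identical to a stretch 218 kb away that holds the member of Entpd4. Tags of such copies cannot be told apart, so the difference belongs to the pair and not to 1 gene. The other 3 members differed in the same direction with no overlap between genotypes, by 2.01 at Gm16867, 1.56 at Entpd4 and 1.82 at Entpd4b (adjusted p = 0.126, 0.106 and 0.0720).

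Of 41 other regions within 250 kb of the Slc25a37 member, promoters or not, 34 were higher in Pbrm1 cKO. In 24 of these 34 the genotypes did not overlap, and the median difference of the 41 was 0.63. Over all regions 50.04% were higher and 10.6% higher without overlap. The window holds both copies of the Slc25a37 region. Regions in copies share tags, so the 41 are not independent of each other. Members farther on, at R3hcc1, Chmp7, Tnfrsf10b and Rhobtb2, differed by -0.38, 0.13, 0.25 and 0.70, with overlap between genotypes in each. None of the 41 passed the threshold. Around Fggy, Kif11, Btnl10 and Iqsec3, the neighbours in the same direction were 10 of 18, 12 of 18, 6 of 14 and 0 of 10. No copy of at least 95% identity over 50% of the region was found for those 4 or for H2-D1.

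**Figure D5:**
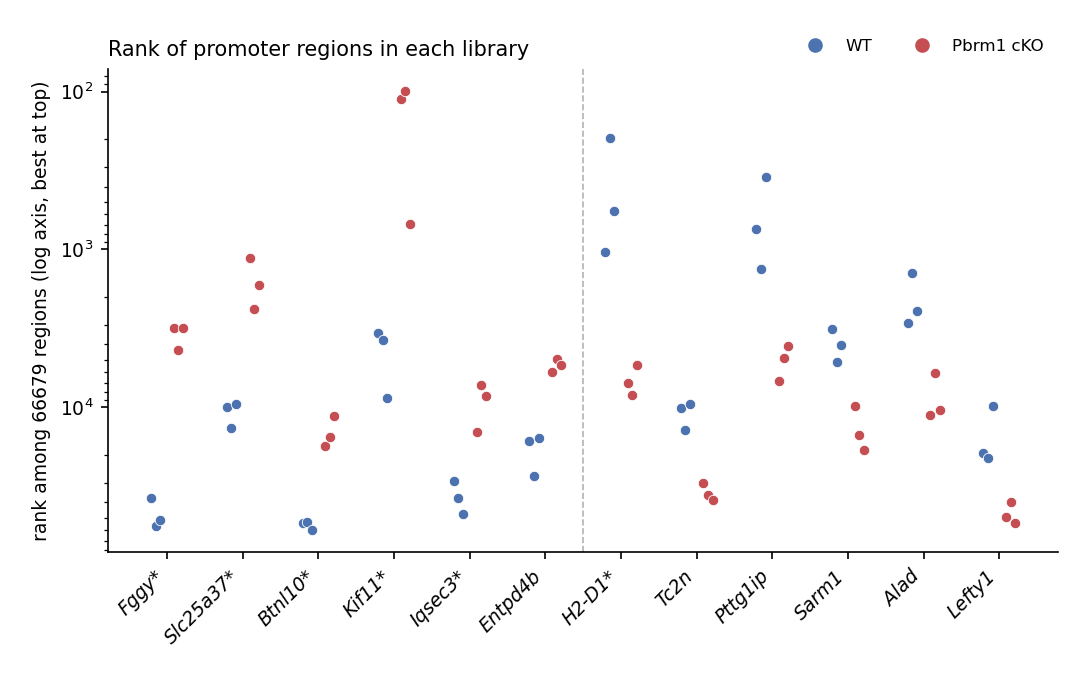
The y axis gives the rank of each member among all merged regions on a log axis with the best rank at the top, with 1 point for each library, WT in blue and Pbrm1 cKO in red. Members higher in Pbrm1 cKO are left of the dashed line and those lower are right of it, an asterisk marks an adjusted p below 0.05, and blue and red points do not overlap for any of the 12. The 12 were chosen by p on these same ranks, which favours such separation.

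Among members lower in Pbrm1 cKO, the 5 next in order of p after H2-D1 did not pass the threshold on the log2 scale. On the normal-score scale all 5 named here passed (adjusted p 0.00569 to 0.0197), and with ranks by fold none did (0.109 to 0.841). Tc2n ranked 10113, 13845.5 and 9530.5 in WT and 30395.5, 35962.5 and 38907 in Pbrm1 cKO, a difference of -1.66 (adjusted p = 0.0706). Pttg1ip differed by -2.88 (0.0721), Sarm1, for an NAD-cleaving enzyme of axons, by -1.80 (0.0812), and Alad, the second enzyme of heme synthesis, by -2.03 (0.0818). The region of Sarm1 also lies within 1000 bp of a start of Vtn. Lefty1, an inhibitor of Nodal, differed by -1.58 (0.0846). The values in parentheses are limma adjusted p. The 3 libraries of each genotype did not overlap in any of these, as in 13.0% of all members and 21.5% of all regions. The 5 were picked by their p on the same ranks, so this separation is no further support.

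All 23 genes of SWI/SNF subunits had a member, and none of these passed the threshold. They were led by Actl6a, the actin-like subunit, at a mean rank of 344 and Smarcc1 at 2336, and ended with Smarcd3 at 23700 and Phf10, of PBAF, at 35261, with a median of 5846. The region of Smarcc1 also lies within 1000 bp of a start of Dhx30. Differences had a median of 0.03, with 13 of 23 above 0. The promoter of Pbrm1 itself, shared with Gnl3 on the other strand, ranked 19394.5, 10525.5 and 19166 in WT and 12415, 12332 and 22222 in Pbrm1 cKO (difference 0.07, SE 0.37, adjusted p = 0.95). It lies outside coding exons and is no check of the deletion.

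Immediate early genes, which cells switch on within minutes of a stimulus such as tissue digestion, had a member in 20 of 20 cases. Jun (2764), Atf3 (2785) and Egr1 (3117) had the best mean ranks and Egr3 (17357) and Fosl1 (22147) the lowest. None passed the threshold, the median difference was 0.10, and 12 of 20 were above 0. Atf3 was nearest, at 1.42 (SE 0.67, adjusted p = 0.31). All 12 core genes of RNA polymerase II had a member, between Polr2i, shared with Tbcb, at 898 and Polr2k at 14840. Their median difference was -0.19, and none was past the threshold. Polr2j was nearest, at -1.39 (SE 0.55, adjusted p = 0.23).

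Prostaglandins act on the muscle of the oviduct. Of 25 genes for their synthesis, transport, breakdown and receptors, 15 had a member. Ptges3 (1937) and Akr1b3 (1964) ranked best, and Cbr1 (39328) and Ptgs1, for cyclooxygenase 1 (39909), lowest. Ptgs2, for cyclooxygenase 2, was at 9682. The receptor genes Ptger4, Ptgfr and Ptger3 had a member, and Ptger1, Ptger2, Ptgdr and Ptgir had a region in 1 list only, as did the transporter Slco2a1. Ptgds, Hpgds, Ptgis, Akr1b7 and Tbxa2r had none. None of the 15 passed the threshold. The median difference was -0.25, with 4 above 0, next to -0.03 over all members. An unadjusted p below 0.05 was reached by 3 of 15, next to 15.9% of all regions and 7.99% of members. They were Ptgr1, at -1.01 (SE 0.39, adjusted p = 0.22), Akr1b3, at -1.19 (SE 0.52, adjusted p = 0.27), and Hpgd, which starts the breakdown of prostaglandins, at -0.78 (SE 0.35, adjusted p = 0.29).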

How the data were processed

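ATAC-seq was analysed for 6 libraries, 3 WT and 3 Pbrm1 cKO. Per the labels and the study's methods, the authors trimmed reads with cutadapt, aligned them with Bowtie2 to GRCm38.p5 and called peaks with MACS2 in the ENCODE pipeline. The study's text describes the pipeline and the Cre for its uterine work, and both were taken to apply to these oviduct libraries. The deposited lists give the fold of each summit over local background, a −log10 p and a −log10 q, and a score, which is a rescaled IDR value in the list of each genotype. Lists of single libraries were called at a p of 0.01 with at most 300000 entries. The lists held no read counts, so ranks took the place of the authors' DESeq2 test.

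Starts came from GENCODE M21. The median fold and median tags were set between libraries to describe depth. For CpG class and motifs, 12 motifs were read with pysam 0.24.0, and copies were sought with blastn 2.17.0 (at least 95% identity over 50% of a region). Rank scores were compared with limma 3.58.1 in R 4.3.3 (eBayes with a trend), adjusted by Benjamini-Hochberg over 66679 regions with a threshold of 0.05, after a test on simulated data. That test recovered a minority of the changes put in, so a member short of the threshold is not shown to be unchanged. Medians over members were compared with exact permutation tests over libraries. Total reads are unknown, so the number of tags over a summit was the measure of depth, and intervals cover counting error only. No library was left out, and 1 library at a time was omitted as an alternative, next to normal scores, ranks by fold and other distances.

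The members, 11 gene lists and 13 families were chosen with earlier results of these data known. Named members were those past the threshold, filled to 6 per direction by p, the 10 best and 5 lowest by mean rank, the 2 best and 2 lowest of each list, the 3 with most genes and the 3 on each side of the distance limit; others named were chosen after their values were seen. A list gene and a promoter stretch that the rule would name are not reported here.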

Additional observations from a re-analysis of the deposited data

How the results depend on the processing

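The number of members past the threshold depended on the scale of the ranks. On a normal-score scale it was 71 (25 higher, 46 lower), and all 6 remained among them. Ranks by fold left 1, and testing only the upper 50% of regions by mean rank score gave 10. A block for the replicate number gave 14, with Tc2n, Pttg1ip, Alad and Entpd4b among them, and with normal scores, an alternative chosen after seeing the data, 84. Calls over all regions were 1552 with normal scores, 131 with the block and 1418 with both. The members' share was 0.454%, 0.0895% and 0.537%, and that of all regions 2.33%, 0.196% and 2.13%. All regions include those seen in 1 list only, which members cannot be, so the gap between these shares is no trait of promoters. Same-numbered samples did not deviate together over all regions (correlations -0.02, -0.04 and -0.03). With 3 libraries per genotype, this cannot settle whether the replicate numbers pair the libraries. For the genotype comparisons of medians and covered length, the block leaves 3 pairs. Their exact sign-flip test cannot go below p = 0.25, so it cannot decide these comparisons. Over all regions it raised the calls from 45 to 131. Leaving out 1 library gave between 1 and 3 members (with normal scores, chosen after seeing the data, 25, 38 and 142 without WT libraries 1 to 3 and 9, 19 and 32 without Pbrm1 cKO libraries 1 to 3, beside 151 to 1773 over all regions). The cause was not tested.

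The share of genes with a member was 57.4% at 500 bp, 62.3% at 3000 bp, 52.4% with the upper 50% of each IDR list and 57.3% with starts of coding transcripts only. CpG-rich starts made up 38.8% of member genes in a window of 1000 bp and 74.3% at a ratio of 0.6 alone.

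Signs turned for the median rank score of members with ranks by fold (-0.0661) and over the values without 1 library (-0.0544 to 0.0973), for CpG-poor against CpG-rich members with ranks by fold (0.0121) and without 1 library (-0.228 to 0.00108), for the summit offset without 1 library (-2.83 to 0.17 bp) and for covered length without 1 library (-0.15 to 0.31 Mb). Exact permutation tests of 3 against 3 libraries cannot go below 0.1, and fewer libraries cannot reach 0.05 either. The tests therefore decide nothing here. Members stood above other shared regions by 1.30 to 1.38 when 1 library was left out, where 5 libraries cannot give an exact permutation p under 0.0625.

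Depth limits what can be seen: total reads are unknown, and a region with no entry is below its list's threshold, not shown to be closed.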
